A study of Arabidopsis thaliana with 9 samples.

Results

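The genes of the chloroplast and mitochondrial genomes were examined in the transcriptomes of 4-day-old Arabidopsis thaliana seedlings. They were taken as every count row whose ID begins with ATCG (chloroplast) or ATMG (mitochondrial), which gave 134 chloroplast and 162 mitochondrial rows, or 296 of 38194 gene rows. The plants, all of the accession Columbia-0 (Col-0), were grown at 23 °C on plates under fluorescent light, with 16 h of light and 8 h of dark. Libraries were made from wild-type seedlings (WT), from a line that carries APOLO under the constitutive viral 35S promoter (OE APOLO) and from a line that carries human UPAT under that promoter (OE UPAT). APOLO is an Arabidopsis long noncoding RNA and UPAT is a human one with an unrelated sequence. Each transgene was represented by 1 line, OE APOLO-1 and OE UPAT-1 in the study's naming, and each group by 3 libraries (A, B and C) that the study describes as independent biological replicates.

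The APOLO row (AT2G34655) held 2 counts in each WT library, 1, 3 and 3 counts in the libraries labelled OE APOLO and 1, 1 and 0.5 counts in the OE UPAT libraries. The overexpression was therefore not visible in this row, and every direction given for OE APOLO refers to the libraries that carry that label. UPAT has no counterpart in the Arabidopsis annotation and could not be checked. Gene counts ranged from 11887311 to 14078290 in the WT and OE APOLO libraries and from 7883571 to 9184836 in the OE UPAT libraries. The 3 markers of green tissue (RBCS1A, LHCB1.1 and LHCA1) summed to between 17110 and 25000 CPM (a count scaled to library size) in the 9 libraries, and the 3 root hair markers (LRX1, EXPA7 and COBL9) to between 21.5 and 53.8 CPM.

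Chloroplasts and mitochondria keep small genomes of their own. The chloroplast genome encodes core subunits of the photosystems and the ATP synthase, the large subunit of the carbon-fixing enzyme Rubisco, and ribosomal and transfer RNAs and proteins, and the mitochondrial genome encodes subunits of the respiratory complexes. Chloroplast genes are read by a plastid-encoded RNA polymerase that needs nuclear-encoded sigma factors and by a nuclear-encoded polymerase, and mitochondrial genes by nuclear-encoded polymerases. In plant organelles a poly(A) tail marks an RNA for decay and most mature transcripts carry none, whereas these libraries were made with a kit that selects poly(A) RNA. Organelle counts in such libraries therefore describe the captured fraction of the transcripts, and fewer organelles, less RNA per organelle and less capture cannot be told apart.

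Part of the organelle sequence cannot be placed in 1 row, which is visible in the sequences themselves. In the TAIR10.1 assembly, 33.9% of the 75-base windows of the chloroplast genome (the read length) recur elsewhere in that genome, and 69% of those of the mitochondrial genome recur in the nuclear chromosomes, nearly all of them (68.9%) on chromosome 2. A tract at chr2:3239038-3509765 (270728 bases) had 94.1% of its windows in common with the mitochondrial genome. The mitochondrial reference used here is the RefSeq record, which may differ from the sequence the study aligned to. The first 75 coding bases of ribosomal protein L2 show the repeat within the chloroplast genome, where RefSeq places them at positions 152806 to 152880 on the plus strand and again at 85769 to 85843 on the minus strand.
Chloroplast ribosomal protein L2, coding start: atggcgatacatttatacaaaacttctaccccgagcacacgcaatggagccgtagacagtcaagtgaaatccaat
The coding start of ribosomal protein S12 shows the copy between genomes. This stretch is identical at chr2:3270410-3270484 on the plus strand, in the nuclear gene AT2G07675, and at positions 288446 to 288520 of the mitochondrial genome, and RefSeq notes pair AT2G07675 with ATMG00980.
Ribosomal protein S12, coding start: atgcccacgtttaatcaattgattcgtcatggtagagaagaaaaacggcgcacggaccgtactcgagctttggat
Some copies carry a difference that a read could use. ATMG00280, described in RefSeq notes as a piece of the Rubisco large chain, and its nuclear partner AT2G07732 differ by G38C in the following stretch, counted from 1 at its 5′ end, with the mitochondrial base first and the differing base in capitals. The mitochondrial stretch lies at positions 165135 to 165209 on the plus strand and the nuclear one at chr2:3468512-3468586 on the minus strand.
ATMG00280, mitochondrial: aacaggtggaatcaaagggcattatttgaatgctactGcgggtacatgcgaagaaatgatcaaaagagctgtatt
AT2G07732, nuclear: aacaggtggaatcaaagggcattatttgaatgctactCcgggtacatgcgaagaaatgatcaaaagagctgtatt

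The counts mirrored these repeats. Of the values above 0, 49.2% were fractional in chloroplast rows and 57.9% in mitochondrial rows, against 12.4% in nuclear rows, so that some reads had been divided among rows. Whether such a read had several positions or overlapped several rows at 1 position is not shown by the fractions alone. In the chloroplast genome, 12 pairs of rows held counts within 1.5% of each other over the 9 libraries, among them ATCG00830 and ATCG01310 (ribosomal protein L2), ATCG00930 and ATCG01200, and ATCG00940 and ATCG01190. Such a pair was read as 1 measurement written in 2 rows, but the counts of rows given below include both copies. With the pairs summed, a setting chosen after seeing the data, 89 chloroplast rows could be tested. Among mitochondrial rows, 53 were paired by RefSeq notes with 55 nuclear rows, and these 53 held 45.4% of all mitochondrial row counts. The S12 row ATMG00980 summed to 1586 counts over all libraries and its nuclear partner AT2G07675 to 1588. Over the 14 pairs with at least 90 counts in the mitochondrial row, the nuclear row held 0.245 to 2.22 counts per mitochondrial count, with a median of 1.1. Of the 55 pairs, 29 shared every 75-base window of the nuclear copy with the mitochondrial genome. For reads from shared windows the genome of origin cannot be told apart.

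Organelle rows held a small share of each library, and the chloroplast share differed up to 2.73-fold between libraries of 1 group. Chloroplast rows took 0.315%, 0.409% and 0.273% of the gene counts in WT libraries A, B and C. In the libraries labelled OE APOLO they took 0.336%, 0.139% and 0.13%. In OE UPAT libraries they took 0.25%, 0.167% and 0.455%. Library A of OE APOLO lay within the WT range while its other two libraries lay below every WT library, and OE UPAT held both a library below and a library above all of WT. The group means were 0.332% ± 0.0699 (SD, n = 3) in WT, 0.202% ± 0.117 (SD, n = 3) in OE APOLO and 0.291% ± 0.148 (SD, n = 3) in OE UPAT, and the ranges of all 3 groups overlapped. The mean of OE APOLO was 0.607 times that of WT and the mean of OE UPAT 0.876 times. Without OE UPAT library B the latter ratio was 1.06.

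Mitochondrial rows took a share more than an order of magnitude smaller, and the libraries fell in much the same order. The share was 0.0126%, 0.0167% and 0.0119% in WT, 0.017%, 0.00834% and 0.0077% in OE APOLO, and 0.0107%, 0.00901% and 0.0162% in OE UPAT. Library A was again the high one of OE APOLO and library C of OE UPAT. The totals behind these shares were 15347 to 56219 chloroplast and 827 to 2296 mitochondrial counts a library. Group means of the mitochondrial share were 0.0137% ± 0.0026 (SD, n = 3), 0.011% ± 0.0052 (SD, n = 3) and 0.012% ± 0.00375 (SD, n = 3) in WT, OE APOLO and OE UPAT, with overlapping ranges. The number of chloroplast counts per mitochondrial count was 22.9 to 25 in WT, 16.6 to 19.8 in OE APOLO and 18.6 to 28.2 in OE UPAT. The OE APOLO libraries lay below the WT libraries in this ratio, library A included, and no test was made of it.

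**Figure D1:**
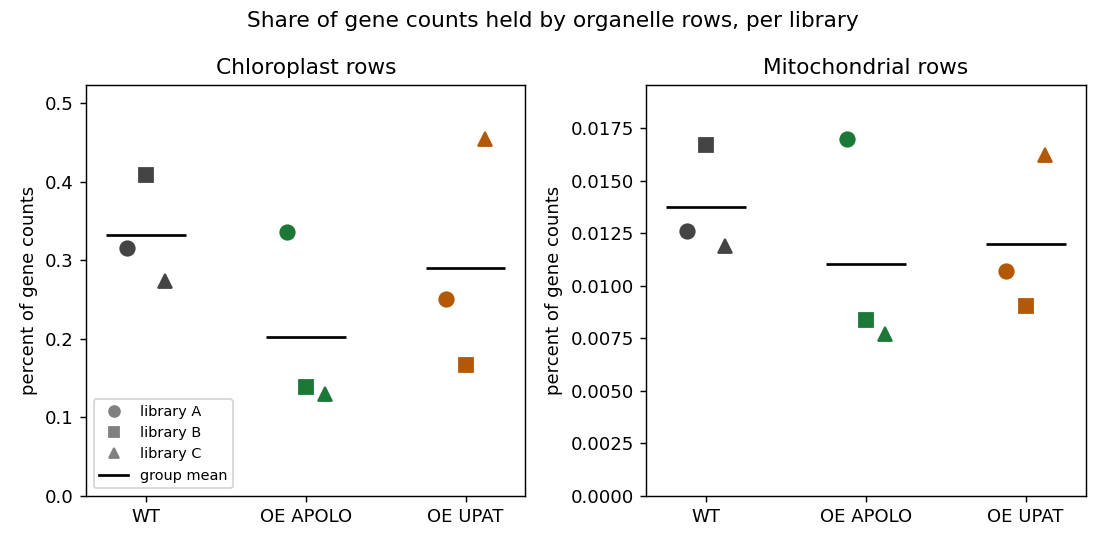
Percent of gene counts held by chloroplast rows (left) and mitochondrial rows (right) in each of the 9 libraries, with marker shapes for libraries A, B and C and bars for group means. Library A of OE APOLO (0.336% and 0.017%) stands apart from libraries B and C of that group in both genomes.

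Most rows of a genome followed these shares together, except for the chloroplast rows in OE UPAT. Of 134 chloroplast rows 109 exceeded 3 counts in at least 1 library, 21 did not, and 4 were at 0 throughout. Of 162 mitochondrial rows, 52 exceeded 3 counts, 62 did not and 48 were at 0. The filter on low counts left 99 chloroplast and 36 mitochondrial rows for testing. OE APOLO library A was the highest of its group in 91 of the 99 chloroplast rows and in 32 of the 36 mitochondrial rows. WT library B was the highest of WT in 84 chloroplast rows, and OE UPAT library B the lowest of OE UPAT in 83. In OE UPAT, library A was the highest in 62 of the 99 chloroplast rows and library C in 37. Library C nonetheless had the highest chloroplast share of that group. Set against the WT mean, the median log2 ratio over the 99 chloroplast rows was 0.18 in OE APOLO library A, -1.42 in library B and -1.40 in library C. In OE UPAT it was -0.16, -1.01 and -0.29, and in WT -0.05, 0.33 and -0.34. The same medians over 19886 nuclear genes lay between -0.015 and 0.001 in all libraries. Nuclear genes are most of the rows used to scale the libraries, so medians near 0 follow from that scaling.

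OE UPAT library C was unlike the others in which rows were high. It held the highest value of all 9 libraries for 20 of the 99 chloroplast rows and for 20 of the 36 mitochondrial rows, while WT library B did so for 56 chloroplast and 5 mitochondrial rows. OE APOLO libraries B and C together held the lowest value for 80 of the 99 chloroplast rows, 42 and 38 of them. Several of the 20 chloroplast rows that peaked in OE UPAT library C were close in ID, namely ATCG00550 to ATCG00580 and ATCG00920 to ATCG00940 with their copies ATCG01190 to ATCG01210. In the same library, rows that RefSeq types as nuclear ribosomal RNA summed to 12.2 CPM, against 3.7 to 9.02 CPM in the other 8 libraries. Small nuclear RNA rows summed to 32.2 CPM against 14.7 to 24.8 CPM, and small nucleolar RNA rows to 131 CPM against 96.1 to 118 CPM. In OE APOLO library A, high in both organelle shares, these sums were 4.44, 16.3 and 101 CPM. They were 3.95, 20.8 and 108 CPM in OE APOLO library B and 4.42, 14.7 and 96.1 CPM in library C. WT library B, the highest of WT in both shares, had 5.22, 20.4 and 115 CPM. WT library A had 9.02, 24.8 and 107 CPM and WT library C 7.79, 18.9 and 106 CPM. The RNA classes named mostly lack poly(A) tails, and their part in the organelle values was not tested. Ribosomal RNA reads had been removed before counting, so the ribosomal RNA sums hold what that removal left.

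**Figure D2:**
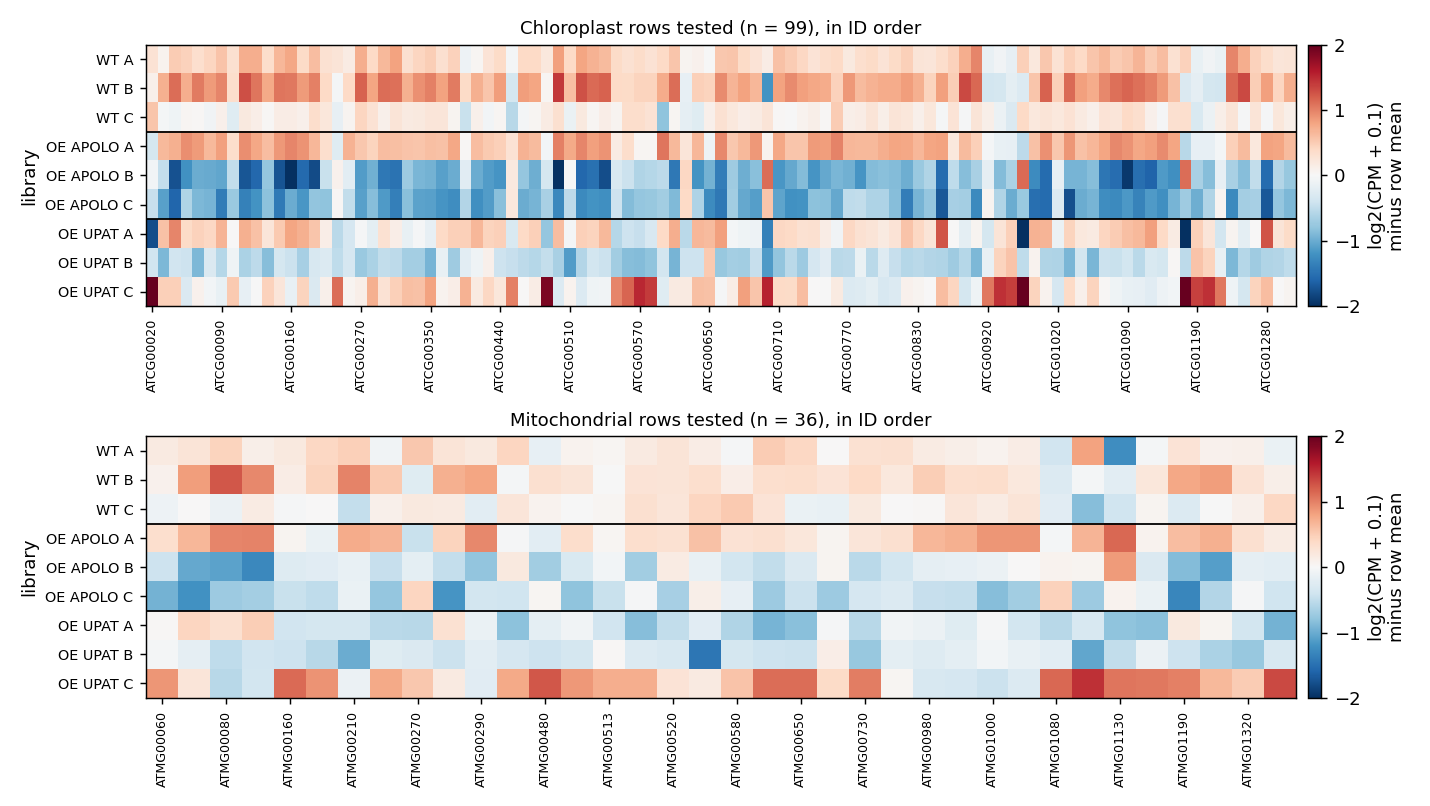
Level of each tested row, as log2(CPM + 0.1) minus the mean of the row over 9 libraries, for 99 chloroplast rows (top) and 36 mitochondrial rows (bottom) in ID order; red is above and blue below the row mean. Libraries B and C of OE APOLO are low in most chloroplast rows while library A is high, and blocks of neighbouring rows are high in library C of OE UPAT.

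The rows with most chloroplast counts were ATCG00490 and ATCG00020, followed by ATCG00280, ATCG00120, ATCG00340, ATCG00680, ATCG00480, ATCG00270, ATCG00130 and ATCG00350. No table used here pairs these IDs with gene names, and they are given by ID alone. ATCG00490 stood at 374, 330 and 359 CPM in WT, at 310, 252 and 206 CPM in OE APOLO and at 189, 232 and 1183 CPM in OE UPAT. ATCG00020 stood at 342, 299 and 407 CPM in WT, at 218, 268 and 201 CPM in OE APOLO and at 81.1, 211 and 1192 CPM in OE UPAT. All 3 OE APOLO libraries lay below all WT libraries for both rows, library A included, but neither passed the test. The OE UPAT libraries lay on both sides of WT, with libraries A and B below and library C far above. Together the 2 rows took 16.2% to 27.8% of the chloroplast counts in WT, 16% to 36% in OE APOLO, and 11.2%, 26.5% and 50.5% in OE UPAT. The remaining chloroplast rows gave 0.225% of the gene counts in OE UPAT library C, close to 0.222% in library A and 0.244% in WT library A. Its high chloroplast share thus lay in these 2 rows, which alone gave 0.23% of its gene counts against 0.028% to 0.0758% in the other libraries.

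Rows below these 2 behaved differently. ATCG00280 stood at 166, 219 and 155 CPM in WT, at 173, 64.7 and 69.5 CPM in OE APOLO and at 111, 81.6 and 206 CPM in OE UPAT. ATCG00120 stood at 183, 268 and 126 CPM in WT, at 209, 33.7 and 43.3 CPM in OE APOLO and at 180, 71.2 and 98 CPM in OE UPAT. In both rows OE APOLO library A lay within WT and its libraries B and C lay below it. The highest value of a row over its lowest, across the 9 libraries, was 4.18 at the median of the 99 rows and ranged from 1.93 in ATCG00630 to 20.1 in ATCG00970.

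**Figure D3:**
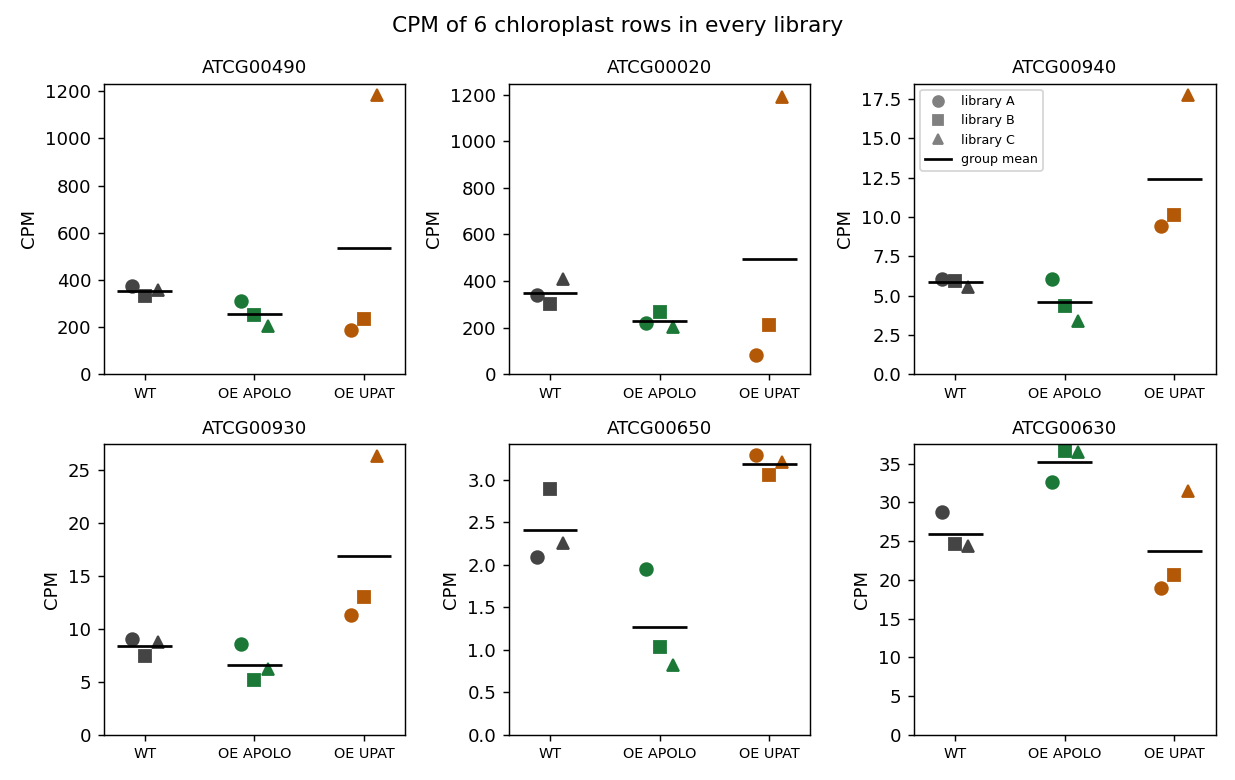
CPM of 6 chloroplast rows in each library, with marker shapes for libraries A, B and C and bars for group means. ATCG00490 and ATCG00020 reach 1183 and 1192 CPM in OE UPAT library C, whereas ATCG00940, ATCG00930 and ATCG00650 are above WT in every OE UPAT library.

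The comparison of OE APOLO with WT asked which genes change with APOLO overexpression. Most chloroplast rows were estimated lower in OE APOLO, but none passed the test. The log2 fold change was below 0 in 93 of 99 chloroplast rows (median -0.66) and in 32 of 36 mitochondrial rows (median -0.28), beside a median of -0.001 over all 20021 genes tested. The scaling of the libraries keeps the median over all genes near 0. By edgeR's quasi-likelihood test with Benjamini-Hochberg adjustment over all genes, at a false discovery rate (FDR) under 0.01, 0 rows of either genome were called, while 6.54% of all genes were. DESeq2 also called 0. At an unadjusted p under 0.05 there were 26 chloroplast rows of 99 and 1 mitochondrial row of 36, near or below the 26.4% of all genes. At an FDR under 0.05, where 13.3% of all genes passed, 5 chloroplast rows did. ATCG00270, ATCG00650, ATCG00905 and its copy ATCG01230 were lower and ATCG00630 was higher.

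Few rows separated the groups. OE APOLO lay wholly below WT in 7 of 99 chloroplast rows and 1 of 36 mitochondrial rows, against 15.1% of all genes. It lay wholly above WT in ATCG00450 and ATCG00630 and in the mitochondrial rows ATMG01080 (ATP synthase subunit 9, part of the membrane ring of the enzyme) and ATMG01130, against 15.9% of all genes. The mitochondrial row below WT was ATMG00180, a cytochrome c biogenesis protein. ATCG00630 stood at 28.7, 24.7 and 24.3 CPM in WT and at 32.6, 36.6 and 36.5 CPM in OE APOLO, with a log2 fold change of 0.44 (SE 0.133, adjusted p = 0.0387). It was thus higher in the 2 libraries in which most chloroplast rows were lowest.

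One library decided this comparison. Without OE APOLO library A, 72 of 102 chloroplast rows tested were called lower and 0 higher, and 4 of 36 mitochondrial rows were called lower (ATMG00070, ATMG00080, ATMG00090 and ATMG01190). The share of all genes called was then 8.47%. The median log2 fold change of chloroplast rows moved from -0.66 to -1.40 and that of mitochondrial rows from -0.28 to -0.58. ATCG00270, for example, stood at 128, 176 and 105 CPM in WT and at 113, 35.7 and 36.6 CPM in OE APOLO. Its log2 fold change was -1.14 (SE 0.34, adjusted p = 0.037) with all libraries and -1.92 (SE 0.207, adjusted p = 7.46e-06) without library A. Without library B or library C of OE APOLO, 0 rows were called in either genome beside 4.28% and 4.31% of all genes, and the chloroplast median was -0.40 in each case. Leaving out WT libraries gave medians between -0.48 and -0.80 and 0 calls, beside 3.16%, 4.43% and 3.61% of all genes without A, B and C. With libraries B and C alone against WT, the group rests on 2 libraries, and nothing in the labels sets library A apart from them. Over the organelle rows tested, the deviations of OE APOLO library A from its group mean correlated with those of WT library B (r = 0.842). With OE UPAT library A the correlation was 0.824, and with the remaining WT and OE UPAT libraries it was -0.737 to -0.335. Deviations within a group cancel out, so positive values come with negative ones. No cause of this pattern was tested.

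The comparison of OE UPAT with WT asked the same of the human transcript. Here 4 chloroplast rows rose, and they are 2 pairs of copies. ATCG00940 stood at 6.06, 5.91 and 5.54 CPM in WT and at 9.43, 10.1 and 17.8 CPM in OE UPAT, and all OE UPAT libraries lay above all WT libraries. Its log2 fold change was 1.08 (SE 0.229, adjusted p = 0.00215, edgeR), and its copy ATCG01190 gave 1.07. ATCG00930 stood at 9.07, 7.41 and 8.73 CPM in WT and at 11.3, 13 and 26.3 CPM in OE UPAT, again without overlap. Its log2 fold change was 0.98 (SE 0.255, adjusted p = 0.00806) and that of its copy ATCG01200 was 0.97. In both pairs OE UPAT library C was the highest, and without it the log2 fold changes of ATCG00940 and ATCG00930 were 0.74 and 0.52 (adjusted p = 0.0145 and 0.0557). Leaving out WT library C also ended the call of ATCG00940 (adjusted p = 0.011), and leaving out any WT library that of ATCG00930 (adjusted p = 0.0193 to 0.035). The 4 called of 99 stood beside 19.8% of all genes called.

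No mitochondrial row was called in OE UPAT by edgeR or by DESeq2, with 2 of 36 at an unadjusted p under 0.05. For chloroplast rows that number was 11 of 99, and over all genes it was 41.5%. The log2 fold change was below 0 in 77 of 99 chloroplast rows (median -0.42) and in 24 of 36 mitochondrial rows (median -0.23). At an FDR under 0.05, where 31.5% of all genes passed, ATCG00270, ATCG00905, ATCG01020 and ATCG01230 were also lower. ATCG01020 stood at 23.8, 27.1 and 22.6 CPM in WT and at 18, 12.7 and 15.4 CPM in OE UPAT, a log2 fold change of -0.67 (SE 0.183, adjusted p = 0.0111). OE UPAT lay wholly below WT in 10 chloroplast rows and in the mitochondrial rows ATMG00980, ATMG00990, ATMG01000 and ATMG01010, against 23.6% of all genes. It lay wholly above WT in 5 chloroplast rows, the 4 called and ATCG00650, against 23.1% of all genes.

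Library C also weighed on this comparison. Without OE UPAT library C, the 4 rows were no longer called and 5 others were called lower, namely ATCG00020, ATCG00490, ATCG00550, ATCG00570 and ATCG00580, with 13.6% of all genes called. ATCG00490 then had a log2 fold change of -0.76 (SE 0.141, adjusted p = 0.00149), against 0.59 with all libraries. ATCG00020 had -1.27 (SE 0.272, adjusted p = 0.00382), against 0.50. The leading rows of the chloroplast thus changed sign with a single library. Without WT library C, 0 chloroplast rows were called beside 14.6% of all genes, and without WT library A or B 2 were, beside 14.6% and 15.1%.

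OE UPAT was also compared with OE APOLO directly, with no WT library in the contrast. Chloroplast rows were mostly estimated higher in OE UPAT (80 of 99, median 0.29), and 6 passed the test, 5 higher and 1 lower, against 17.8% of all genes. The 5 were the 2 copy pairs named above and ATCG00650. ATCG00940 differed by 1.42 on the log2 scale (SE 0.238, adjusted p = 0.000439) and ATCG00930 by 1.32 (SE 0.264, adjusted p = 0.0016). ATCG00650 stood at 1.94, 1.04 and 0.82 CPM in OE APOLO and at 3.29, 3.05 and 3.21 CPM in OE UPAT, and differed by 1.28 (SE 0.291, adjusted p = 0.00391). It was higher in every OE UPAT library than in any library of the other groups, but leaving out library B or C of OE APOLO or any OE UPAT library ended the call (adjusted p = 0.0132 to 0.0171). ATCG00630 was the 1 row lower in OE UPAT, at 19, 20.6 and 31.4 CPM against 32.6, 36.6 and 36.5 CPM, a difference of -0.59 (SE 0.141, adjusted p = 0.00566). Leaving out library B or C of OE APOLO or library A or B of OE UPAT ended that call (adjusted p = 0.0154 to 0.0427).

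The same 6 rows were those without overlap between the groups, where the shares of all genes were 19.8% higher and 21.9% lower. At an unadjusted p under 0.05 there were 9 chloroplast rows and 0 mitochondrial rows, against 40.1% of all genes. No mitochondrial row was called by edgeR or DESeq2, and the median log2 fold change of the 36 was 0.12. Without OE APOLO library A, 52 chloroplast rows were called higher and 1 lower (ATCG00630), and 2 mitochondrial rows were called higher (ATMG00070 and ATMG01190), beside 17.5% of all genes. This contrast and the one with WT share the OE APOLO libraries, so both moved when library A was left out.

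**Figure D4:**
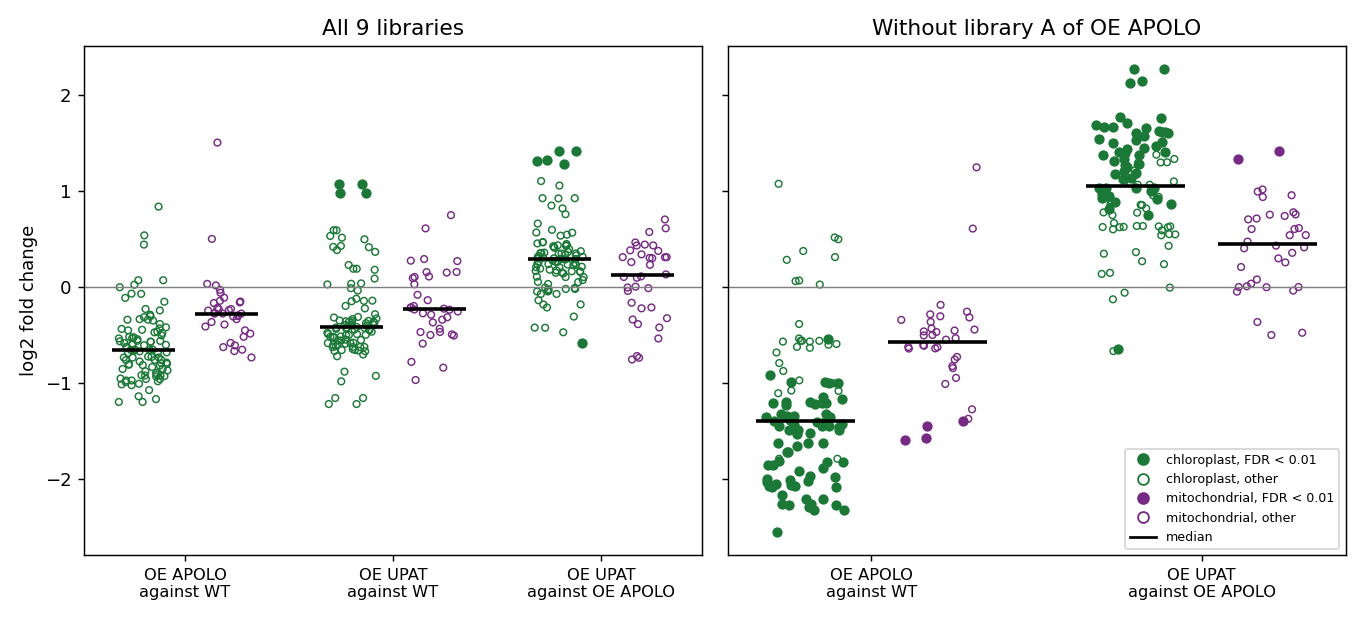
Log2 fold change of tested chloroplast (green) and mitochondrial (purple) rows in each contrast, with all 9 libraries (left) and without library A of OE APOLO (right); filled points have an FDR under 0.01 and bars are medians. Leaving out 1 library moves the chloroplast median from -0.66 to -1.40 and the rows called from 0 to 72 in OE APOLO against WT.

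Rows were also scaled to the total of their own genome in each library, which asks whether a row changed relative to the rest of that genome. The chloroplast median then lay at 0.001 in OE APOLO against WT, with 50 rows above 0 and 49 below. ATCG00450 and ATCG00630 were called higher, by 1.34 (SE 0.28) and 1.31 (SE 0.284) on the log2 scale (adjusted p = 0.0043 and 0.00542, edgeR), and so was the mitochondrial row ATMG01130 by 1.80 (SE 0.415, adjusted p = 0.00816). None of these rows was called in this contrast with the scaling over all genes. The totals of both genomes were low in OE APOLO libraries B and C. A low total raises the scaled values of rows that did not fall with it. ATMG01130 stood at 0.216, 0.551 and 0.467 CPM in WT and at 1.57, 1.26 and 0.69 CPM in OE APOLO, close to the level of 3 counts (0.207 to 0.393 CPM by library). Over all genes 7.07% were called in this fit.

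In OE UPAT against WT, this scaling kept the 4 rows called higher and added ATCG00270 and ATCG00350 as lower, by -0.70 (SE 0.158, adjusted p = 0.00298) and -0.39 (SE 0.104, adjusted p = 0.00869). Over all genes 20.3% were called. The chloroplast median was -0.135, with 29 rows above 0 and 70 below. In OE UPAT library C, ATCG00490 and ATCG00020 together made up 50.5% of the chloroplast total, against 11.2% and 26.5% in libraries A and B. Such a total lowers the scaled values of the other chloroplast rows in library C. This bears on the rows called lower in both OE UPAT contrasts. In OE UPAT against OE APOLO, ATCG00940 and ATCG01190 were called higher and ATCG00510, ATCG00630 and ATCG01020 lower, with 18.2% of all genes called. The copy pair ATCG00940 and ATCG01190 was called in both OE UPAT contrasts under both scalings. In OE APOLO against WT both pairs changed sign with the scaling, ATCG00940 from -0.34 to 0.38.

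The mitochondrial rows with most counts were ATMG00980 (ribosomal protein S12), ATMG00090, ATMG00990 (NADH dehydrogenase subunit 3 of respiratory complex I), ATMG01190 (ATP synthase subunit 1, in the catalytic head of the enzyme) and ATMG01360. They were followed by ATMG00510, ATMG00080, ATMG00580, ATMG00070 and ATMG00160. ATMG00980 stood at 15.7, 19.8 and 14.3 CPM in WT, at 22.3, 12.4 and 10.2 CPM in OE APOLO and at 13, 11.7 and 11.3 CPM in OE UPAT. ATMG00990 stood at 10.1, 11.7 and 10.9 CPM in WT, at 15.1, 8.26 and 6.61 CPM in OE APOLO and at 7.83, 8.07 and 7.26 CPM in OE UPAT. For both, all OE UPAT libraries lay below WT, and the log2 fold changes were -0.47 (SE 0.226, adjusted p = 0.129) and -0.50 (SE 0.232, adjusted p = 0.117). In OE APOLO libraries B and C lay below WT and library A above it.

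Other rows were high in OE UPAT library C. ATMG01190 stood at 9.48, 13.4 and 6.49 CPM in WT, at 12.1, 4.28 and 3.11 CPM in OE APOLO and at 8.96, 5.85 and 15.8 CPM in OE UPAT. ATMG00220, apocytochrome b of respiratory complex III, stood at 1.54, 1.91 and 3.93 CPM in OE UPAT against 2.16 to 3.31 CPM in WT. ATMG00730, cytochrome c oxidase subunit 3 of complex IV, stood at 1.21, 1.03 and 3.79 CPM against 2.1 to 2.41 CPM. In these rows the OE UPAT values spanned those of WT. ATMG01080 stood at 2.11, 2.27 and 2.36 CPM in WT, at 2.69, 2.92 and 3.85 CPM in OE APOLO and at 1.86, 2.4 and 6.24 CPM in OE UPAT, and passed no test (log2 fold change 0.50 in OE APOLO, adjusted p = 0.376). When each mitochondrial row was summed with its nuclear partners, a setting chosen after seeing the data, 43 rows could be tested and 0 were called in any contrast. The share of mitochondrial rows plus partners was 0.0196%, 0.0258% and 0.0182% in WT, 0.0267%, 0.013% and 0.0118% in OE APOLO and 0.0167%, 0.0139% and 0.0244% in OE UPAT, in the same order as for the mitochondrial rows alone within each group.

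The rows of both genomes varied more within groups than nuclear genes did. The biological coefficient of variation (the spread between libraries of a group beyond counting noise, as edgeR estimates it) had a median of 0.302 over chloroplast rows, 0.224 over mitochondrial rows and 0.0836 over nuclear genes. It exceeded 0.154, the level that 90% of nuclear genes stay under, in 96 of 99 chloroplast and 29 of 36 mitochondrial rows. These nuclear values do not allow for mean level. Among nuclear genes too the coefficient tended to be larger at low mean CPM, where many mitochondrial rows lie. How far the mitochondrial rows exceed nuclear genes of like level was not tested. The rows with the largest values were ATCG00970 (0.578), its copy ATCG01160 (0.575) and ATCG00020 (0.483), and in mitochondria ATMG01120 (0.397), ATMG00080 (0.366) and ATMG00090 (0.356). The smallest were in ATCG00630 (0.11), ATCG00650 (0.139) and ATCG01020 (0.143), and in ATMG00660 (0.115), ATMG00960 (0.116) and ATMG01320 (0.129). ATCG00970 stood at 9.75, 5.75 and 9.18 CPM in WT, at 4.78, 15.4 and 4.13 CPM in OE APOLO and at 1.54, 4.85 and 30.9 CPM in OE UPAT. Its groups overlapped entirely.

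The spread was largest in OE APOLO for chloroplast rows and in OE UPAT for mitochondrial rows. The median SD of log2(CPM + 1) within a group was 0.332, 0.854 and 0.499 in WT, OE APOLO and OE UPAT for chloroplast rows, and 0.144, 0.31 and 0.445 for mitochondrial rows. For nuclear genes it was 0.102, 0.125 and 0.126. This SD includes counting noise, which weighs more where counts are few. The OE UPAT libraries held 827 to 1275 mitochondrial counts, against 1548 to 2296 in WT and 915 to 2228 in OE APOLO. Without OE APOLO library A the median coefficient of variation fell to 0.175 for chloroplast rows and to 0.164 for mitochondrial rows. Without OE UPAT library C it was 0.298 and 0.148. The chloroplast median stayed above the nuclear one with any single library left out (0.175 to 0.32 against 0.0749 to 0.0911).

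**Figure D5:**
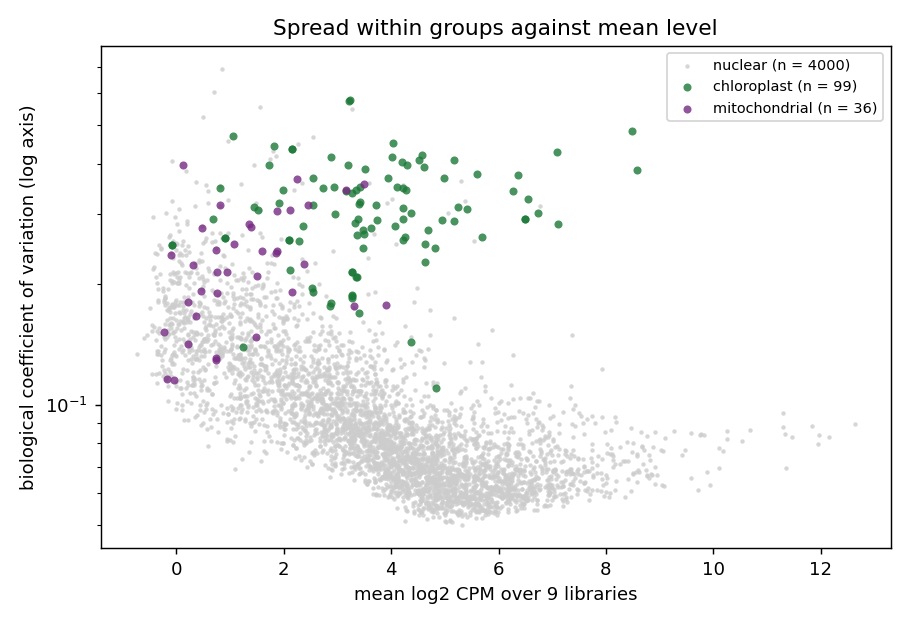
Biological coefficient of variation (log axis) against mean log2 CPM for 99 chloroplast and 36 mitochondrial rows tested and a random draw of 4000 nuclear genes. Chloroplast rows (median 0.302) mostly lie above nuclear genes of the same mean level, and ATCG00630 has the smallest value among them (0.11).

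Nuclear genes that serve the organelles were called about as often in OE UPAT as genes in general. Of 21 nuclear genes of organelle transcription, all tested, 0 were called in OE APOLO (median log2 fold change -0.03), beside 6.54% of all genes. In OE UPAT 3 rose and 1 fell (median 0.03), so that 4 of 21 were called beside 19.8% of all genes. SIG5 (AT5G24120), a sigma factor of the plastid polymerase known to respond to light and stress, stood at 20.8, 21.1 and 24.3 CPM in WT, at 21.2, 20 and 25.2 CPM in OE APOLO and at 11.3, 10.6 and 10.3 CPM in OE UPAT. Its log2 fold change in OE UPAT was -1.03 (SE 0.115, adjusted p = 8.38e-06). SIG2 (AT1G08540), another sigma factor, rose by 0.42 (SE 0.0749, adjusted p = 0.000491). The plastid nucleoid proteins PTAC2 (AT1G74850) and PTAC7 (AT5G24314) rose by 0.44 (SE 0.0822, adjusted p = 0.000812) and 0.73 (SE 0.09, adjusted p = 2.28e-05). Library C of OE UPAT did not stand apart from libraries A and B in SIG5.

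Of 5 nuclear genes of organelle RNA decay, 0 were called in OE APOLO and 1 in OE UPAT, beside 6.54% and 19.8% of all genes. The chloroplast polynucleotide phosphorylase (AT3G03710), which degrades and adds tails to RNA, stood at 58.3, 60.4 and 61.2 CPM in WT and at 76.9, 69.3 and 70.3 CPM in OE UPAT. Its log2 fold change was 0.27 (SE 0.0669, adjusted p = 0.0066), and leaving out OE UPAT library A, OE UPAT library C or any of the WT libraries ended the call (adjusted p = 0.0155 to 0.0354). Of the 3 green tissue markers, RBCS1A (AT1G67090), a nuclear-encoded small subunit of Rubisco, rose in OE UPAT by 0.57 (SE 0.112, adjusted p = 0.00112; 0.0122 without library C) and 0 were called in OE APOLO. The other 2, LHCB1.1 (AT1G29920) and LHCA1 (AT3G54890), both proteins of the light-harvesting antennae, had log2 fold changes of -0.27 and -0.05 in OE UPAT, so that 1 of 3 was called beside 19.8% of all genes. None of the 3 root hair markers was called in any contrast by edgeR, and library C of OE APOLO was their highest at 53.8 CPM. The part of tissue composition in the organelle values was not tested.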

How the data were processed

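Poly(A) RNA was sequenced as stranded single-end 75-base reads in 9 libraries. The deposited tables hold expected counts per feature, whole or fractional, made by the authors with Trimmomatic 0.36, STAR 2.5.2b and featureCounts of Subread 1.6.5 on TAIR10 with the Araport11 annotation, after removal of ribosomal RNA reads. How strand and shared reads were handled is not given in the sources used here; the fractional values show that reads were divided among features. Counts were rounded to whole numbers. Transposable element rows (0.233% to 0.272% of counts) were left out.

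All 9 libraries were fitted together with edgeR 4.0.16 (R 4.3.3): filterByExpr, TMM factors, quasi-likelihood test, Benjamini-Hochberg adjustment over 20021 genes, calls at an FDR under 0.01. CPM values use the TMM-scaled library size, except for the sums over nuclear RNA classes, which use the total of gene counts. The step was tested on simulated data, in which each gene was drawn independently. Those data held no shift shared by the rows of a genome, so the simulation does not bear on such shifts. Shares and spreads are descriptions without a test. Replicate letters did not pair libraries across groups, since 3 of 9 same-letter pairs correlated above 0.1 (range -0.279 to 0.196). No pair of replicates agreed within counting noise over all genes. A level of 3 counts corresponded to 0.207 to 0.393 CPM, which covers counting error only. Alternatives were DESeq2 1.42.0, other normalizations and filters, other thresholds, a replicate block and leaving out each library.

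Organelle IDs matched 0 entries of the RefSeq annotation, against 37898 nuclear rows matched. Products are named only where RefSeq notes of nuclear genes (TAIR10.1) give them, so lists of organelle genes by function were not applied, and neither was leaving out ribosomal and transfer RNA rows. Sequences and shared windows come from RefSeq TAIR10.1, and nuclear partners were aligned with BLAST+ 2.17.0. Named rows are the 10 with most counts, the rows called, the 3 with the largest and smallest spread in each genome, and counts of 5 or fewer in full; ATCG00450, ATCG00510, ATMG00220, ATMG00730, ATMG00280 and the rows of figures or examples beyond these were chosen after their values were seen. Members and lists were chosen with earlier results of these data known.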

Additional observations from a re-analysis of the deposited data

How the results depend on the processing

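Calls in the chloroplast moved with the libraries and thresholds used more than with the tool. In OE APOLO against WT the 0 calls became 5 at an FDR under 0.05, 3 without a filter on low counts, 2 when only those groups were fitted and 2 with the own-genome total as offset, and ranged from 0 to 72 on leaving out 1 library, with 72 without library A of OE APOLO. In OE UPAT against WT the 4 calls became 8 at an FDR under 0.05, 13 when only those groups were fitted, 2 when a change of 1 or more on the log2 scale was required as well, 2 with copy pairs summed (a setting chosen after seeing the data), and 0 to 5 on leaving out 1 library (0 without WT library C). In OE UPAT against OE APOLO the 6 calls ranged from 4 to 53, with 53 without library A of OE APOLO. Mitochondrial calls rose from 0 to 1 in OE APOLO against WT with the own-genome offset and to 2 in OE UPAT against WT when only those groups were fitted, and on leaving out 1 library ranged from 0 to 4 in OE APOLO against WT and from 0 to 2 in OE UPAT against OE APOLO. The other 91 of 108 counts of calls stayed within 1.5 times the main count, among them all those of DESeq2, of RLE and upper-quartile factors, of nuclear-only normalization and of the replicate block (6 chloroplast calls in OE UPAT against OE APOLO and 5 in OE UPAT against WT). The block ended the call of the chloroplast phosphorylase AT3G03710 (adjusted p = 0.011, edgeR) and brought in ATCG01020 (adjusted p = 0.00425). The share of all genes called is not given for DESeq2, the other normalizations and filters, the fits of only the compared groups, summed rows or the block. Nor is it given where a change of 1 or more was required. Counts of calls under those settings cannot be set against all genes.

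The ratio of chloroplast shares ranged on leaving out 1 library from 0.405 to 0.715 in OE APOLO against WT, from 0.628 to 1.06 in OE UPAT against WT, and from 1.03 to 2.16 in OE UPAT against OE APOLO. For mitochondrial shares the ranges were 0.584 to 0.922, 0.717 to 0.978 and 0.894 to 1.49, and the last, 1.09 with all libraries, fell below 1 without OE APOLO library B (0.968) or C (0.944) or OE UPAT library C (0.894). The median spread ranged from 0.175 to 0.32 for chloroplast and from 0.148 to 0.241 for mitochondrial rows. As an SD of log2(CPM + 1), another unit, it was 0.616 and 0.359. With the own-genome offset the log2 fold changes of ATCG00930, ATCG00940, ATCG01190 and ATCG01200 in OE APOLO against WT turned positive (0.39, 0.38, 0.38 and 0.39), and that of ATCG00630 in OE UPAT against WT became 0.10 and ranged from -0.40 to 0.004 on leaving out 1 library. In OE UPAT against OE APOLO the log2 difference of ATCG00490 ranged from -0.28 to 1.47 and that of ATCG00020 from -0.65 to 1.62, both lowest without OE UPAT library C. The log2 fold change of LHCA1 (AT3G54890) in OE UPAT against WT ranged from -0.13 to 0.012 on leaving out 1 library. No cause of these changes was tested. Leaving out ribosomal and transfer RNA rows was not run, because the IDs could not be typed. The median standard error of a log2 fold change was 0.366 to 0.405 for mitochondrial rows, close to the 0.369 to 0.39 of chloroplast rows.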
